A study of Gallus gallus with 9 samples.

Results

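The genes examined here carry out or control the making of bile acids from cholesterol and their passage through the liver. The set held 7 names, namely the enzymes CYP7A1, CYP8B1, CYP27A1 and CYP7B1, the transporters ABCB11 and SLC10A1, and the hormone FGF19, and a locus was a member when its gene symbol was equal to one of these names. Of the 22082 loci counted, 6 were members, and no locus carried the name CYP8B1, which is therefore not analysed here. Of these 6 loci, 5 passed the filter on low counts, and SLC10A1 did not. The set was chosen by the measured level of CYP7A1, which was lowest in the sham-manipulated hens, so the CYP7A1 differences that involve this group are given as a description without a test. For the other members the question was whether they followed CYP7A1.

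Liver RNA was sequenced from 9 Isa Brown laying hens killed at 55 weeks of age, with 3 hens in each of 3 groups. For the albumen-deprived hens, 3 ml of the egg's albumen had been taken out after day 1 of incubation and saline put in its place. Sham-manipulated hens came from eggs that were drilled and closed again without the exchange, and non-manipulated hens from intact eggs. All hens were females of the same stock that were kept in floor pens of a single room and fed freely on the same diets. The total count ran from 13720872 to 21747636 per hen. All 9 hepatocyte markers were found, with a summed level of 151240 to 182260 CPM (counts scaled to the library's size, with the TMM correction for library composition) for the non-manipulated group, 123670 to 196960 for the sham group and 151170 to 174150 for the albumen-deprived group. Of 8 bile duct markers, 7 were matched, with summed levels of 104 to 172, 101 to 149 and 112 to 148 CPM in the same order, mostly from EPCAM, and CLDN4 was at 3 counts or fewer in all 9 hens. Of 8 markers of the gut epithelium, 7 were matched, with summed levels of 798 to 2320, 126 to 1210 and 410 to 1168 CPM, mostly from APOA4. FABP2, CDX1, CDX2 and MEP1A were at 3 counts or fewer in all 9 hens. FABP6 was at 0.906 to 1.80 CPM, VIL1 at 0.267 to 4.46 CPM and APOA4 at 124 to 2318 CPM.

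Bile acids are made in hepatocytes, and their synthesis is the main route by which the body disposes of cholesterol. In mammals the classical pathway opens with CYP7A1, the rate-limiting cholesterol 7-alpha-hydroxylase, and CYP8B1 directs its products to cholic acid, whereas the alternative pathway runs through the mitochondrial sterol 27-hydroxylase CYP27A1 and the oxysterol 7-alpha-hydroxylase CYP7B1. Bile acids leave the hepatocyte across the canalicular membrane through the export pump ABCB11 (BSEP), and are taken back from the portal blood by SLC10A1 (NTCP) among others. In mammals, bile acids that return to the ileum induce the hormone FGF19 (Fgf15 in mice) through the receptor FXR, and FGF19 acts on the liver receptor FGFR4 with its co-receptor KLB to repress CYP7A1.

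Compared per length of transcript, as RPKM (CPM divided by the transcript length in kilobases) averaged over the 9 hens, CYP27A1 was the most abundant member at 110 RPKM, which was higher than 96.9% of the loci tested. CYP7B1 followed with 37.1 RPKM, ABCB11 with 21.3, CYP7A1 with 12.6 and FGF19 with 4.09, the last of which lay near the middle of all loci (50.5% were lower). CYP27A1 was above CYP7B1 in RPKM in every group, with means of 117, 103 and 109 against 34.7, 29.5 and 47.2, given in the order non-manipulated, sham-manipulated, albumen-deprived. That gap rests on the lengths, 2264 bases over 1 transcript model and 6290 bases over 4. In CPM the means were 264, 234 and 247 against 218, 185 and 297, so that CYP7B1 had the higher mean in albumen-deprived hens. ABCB11 and CYP7A1, next to each other by RPKM, lay close in non-manipulated hens, with 17.5 ± 3.73 and 16.0 ± 3.82 RPKM (SD, n = 3), a difference within the spread between hens. This closeness rests on the lengths, 8743 bases over 6 transcript models and 3523 bases over 1, and in CPM the means were 153 and 56.4. In sham-manipulated hens they were 21.8 ± 9.12 and 4.76 ± 2.03 RPKM. Nothing is read from that gap, because the set was chosen by the CYP7A1 level of this group.

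The member genes also differed in how much they varied between hens of a group. The within-group SD on the log2 scale was 0.19 for CYP27A1 and 0.20 for CYP7B1, below the median of 0.26 of all loci tested. It was 0.40 for ABCB11 and 0.52 for CYP7A1, and 1.47 for FGF19, which exceeded 99.0% of the loci tested. Thus the precision of a comparison differed from member to member, and was lowest for FGF19.

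CYP7A1 lies on chromosome 2 of the Galgal4 genome build, from 111724629 to 111733836 on the minus strand, with 6 exons and a summed transcript length of 3523 bases. The level of CYP7A1 was 70.1, 43.2 and 55.7 CPM in the 3 non-manipulated hens. It was 21.4, 8.54 and 20.3 CPM in the sham-manipulated hens, and 58.6, 76.9 and 45.3 CPM in the albumen-deprived hens. All 3 sham-manipulated hens lay below the other 6, and sham-manipulated hen 2 was lowest of all, whereas the non-manipulated and albumen-deprived hens were mixed. The counts behind these values ran from 172 to 1346, so that counting error was small beside the differences between hens.

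The group means of CYP7A1 were 56.4 ± 13.5 CPM for non-manipulated, 16.8 ± 7.15 for sham-manipulated and 60.3 ± 15.9 for albumen-deprived hens (SD, n = 3 each). As a description of the values that led to the choice of the genes, the log2-fold change was -1.75 (SE 0.35) in sham-manipulated compared to non-manipulated hens, and 1.85 (SE 0.35) in albumen-deprived compared to sham-manipulated hens. In the comparison of albumen-deprived to non-manipulated hens the log2-fold change was 0.10 (95% interval -0.66 to 0.85), and its sign turned when non-manipulated hen 2 (-0.07) or albumen-deprived hen 2 (-0.12) was left out. In edgeR's quasi-likelihood F-test the unadjusted P-value was 0.778 and the adjusted P-value over the 12324 loci tested was 0.99995. In bulk liver, a lower level of a transcript in each hepatocyte and a smaller share of the cells that express it cannot be told apart.

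**Figure D1:**
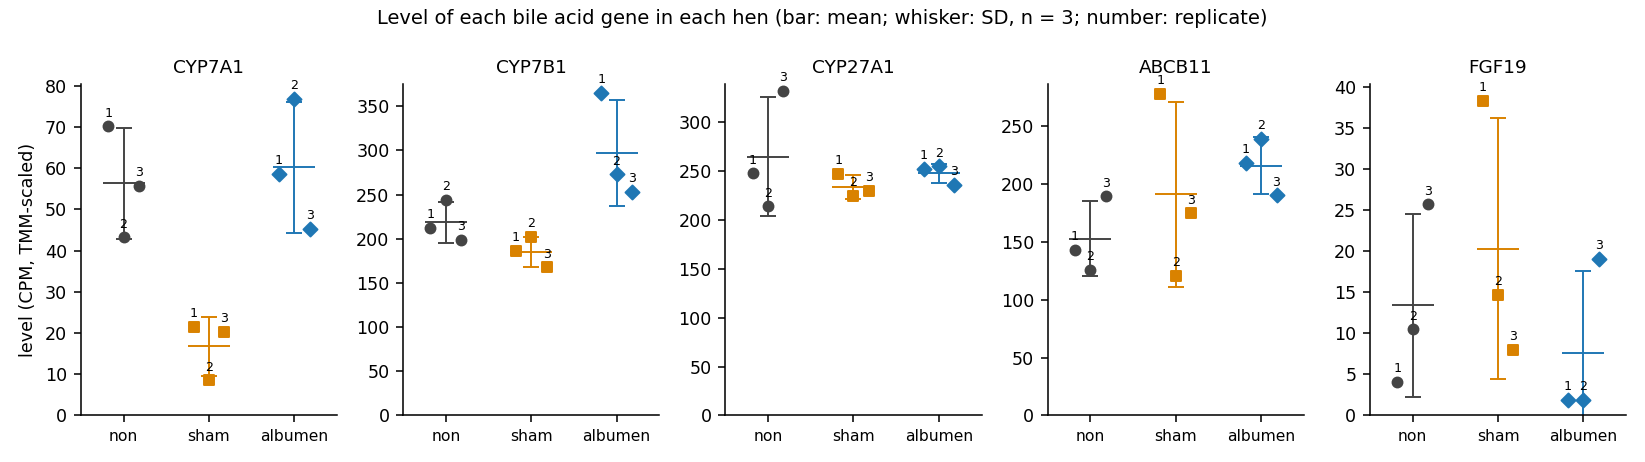
Level of CYP7A1, CYP7B1, CYP27A1, ABCB11 and FGF19 in CPM in each of the 9 hens, by group, with the replicate number beside each point, a bar for the mean and a whisker for the SD (n = 3). The sham-manipulated hens lay apart from both other groups for CYP7A1 (8.54 to 21.4 CPM), while the albumen-deprived hens lay above both other groups for CYP7B1 (253 to 365 CPM).

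CYP7B1, which also lies on chromosome 2 (Galgal4, 114088703 to 114259684, minus strand, 8 exons), showed its highest levels in the albumen-deprived hens. Its level was 212, 244 and 199 CPM in non-manipulated hens, 186, 202 and 168 CPM in sham-manipulated hens, and 365, 273 and 253 CPM in albumen-deprived hens. All 3 albumen-deprived hens were above the other 6, and the ranges of the non-manipulated and sham-manipulated hens overlapped at 199 and 202 CPM. The means were 218 ± 23.3, 185 ± 17.2 and 297 ± 59.6 CPM (SD, n = 3).

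In albumen-deprived compared to sham-manipulated hens the log2-fold change of CYP7B1 was 0.68 (SE 0.17, 95% interval 0.31 to 1.06), a level 1.60-fold higher. In edgeR's quasi-likelihood F-test this gave an unadjusted P-value of 0.00254 and an adjusted P-value of 0.554, so that it did not pass after adjustment, although the unadjusted P-value was under 0.05 in 9 of 9 fits with a hen left out. DESeq2's Wald test called CYP7B1 in this comparison after adjustment, among 42 of the 12324 loci, and edgeR's likelihood ratio test, which called 31, did not. Compared to non-manipulated hens the log2-fold change was 0.44 (SE 0.17, 95% interval 0.07 to 0.82), with an unadjusted P-value of 0.0251 and an adjusted P-value of 0.99995 in the same edgeR test. The unadjusted P-value was no longer under 0.05 without non-manipulated hen 1, non-manipulated hen 3 or albumen-deprived hen 1, with log2-fold changes of 0.42, 0.38 and 0.27. In the sham-manipulated compared to the non-manipulated hens, the comparison that CYP7A1 was chosen for, the log2-fold change of CYP7B1 was -0.24 (95% interval -0.61 to 0.14) with an unadjusted edgeR P-value of 0.184 and an adjusted P-value of 0.932.

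CYP27A1 is on chromosome 7 (Galgal4, 21913412 to 21919652, plus strand, 11 exons). Its end overlaps PRKAG3 on the opposite strand by 57 bases, and the reads carried no strand, but PRKAG3 was at most 0.198 CPM. The level of CYP27A1 was 248, 214 and 332 CPM in non-manipulated, 247, 224 and 229 CPM in sham-manipulated, and 252, 255 and 236 CPM in albumen-deprived hens. The 6 manipulated hens thus lay between 224 and 255 CPM, whereas the non-manipulated group held both the lowest and the highest hen, so that the groups overlapped in all 3 comparisons.

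The log2-fold change of CYP27A1 was -0.18 (95% interval -0.55 to 0.19) in sham-manipulated compared to non-manipulated hens. It was 0.08 (95% interval -0.29 to 0.45) in albumen-deprived compared to sham-manipulated hens, and -0.10 (95% interval -0.46 to 0.27) in albumen-deprived compared to non-manipulated hens. The unadjusted P-values of edgeR's quasi-likelihood F-test were 0.302, 0.625 and 0.571, and the adjusted P-values 0.952, 0.941 and 0.99995. Without non-manipulated hen 3 the signs of the comparisons with non-manipulated hens turned, to 0.02 and 0.10.

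Among the transporters, ABCB11 did not set the sham-manipulated hens apart. It is on chromosome 7 (Galgal4, 18366761 to 18415270, plus strand, 30 exons). Its level was 143, 126 and 189 CPM in non-manipulated hens, 277, 120 and 174 CPM in sham-manipulated hens, and 218, 239 and 190 CPM in albumen-deprived hens. The sham-manipulated group held both the highest hen (hen 1) and the lowest hen (hen 2) of all 9, and the albumen-deprived hens were all above the non-manipulated hens, by a small margin (190 against 189 CPM).

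ABCB11 had a log2-fold change of 0.32 (95% interval -0.31 to 0.95) in sham-manipulated compared to non-manipulated hens, the opposite sign to CYP7A1. It was 0.18 (95% interval -0.46 to 0.81) in albumen-deprived compared to sham-manipulated and 0.50 (95% interval -0.14 to 1.13) in albumen-deprived compared to non-manipulated hens. Their unadjusted P-values in edgeR's quasi-likelihood F-test were 0.284, 0.544 and 0.110, with adjusted P-values of 0.949, 0.923 and 0.99995. The 2 differences that involve the sham-manipulated group each turned in sign when a single hen of it was left out. Without sham-manipulated hen 1 the 3 values were -0.06, 0.55 and 0.49, with unadjusted P-values of 0.800, 0.0408 and 0.0391 in the same edgeR test. Without sham-manipulated hen 2 the first was 0.56, with an unadjusted edgeR P-value of 0.0445, and the second -0.07.

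SLC10A1 (Galgal4 chromosome 5, 27145874 to 27148416, plus strand, 5 exons, transcript length 940 bases) had 0 counts in all 9 hens. A count of 0 allows up to 3 counts by counting error alone, which stands for 0.149 to 0.221 CPM, or 0.159 to 0.236 RPKM, in these libraries. SLC10A1 was therefore not detectable at this depth under this gene model, and no comparison was made.

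FGF19 is on chromosome 5 (Galgal4, 16862037 to 16868089, minus strand, 3 exons). Its level was 4.06, 10.5 and 25.7 CPM in non-manipulated hens and 38.2, 14.7 and 7.99 CPM in sham-manipulated hens. In albumen-deprived hens it was 1.94, 1.94 and 19.1 CPM, from 30, 34 and 290 counts. The highest hen was 19.7-fold above the lowest, all groups overlapped, and the values within each group spanned at least 4.79-fold.

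The log2-fold change of FGF19 was 0.59 (95% interval -1.55 to 2.73) in sham-manipulated compared to non-manipulated hens. It was -1.42 (95% interval -3.62 to 0.79) in albumen-deprived compared to sham-manipulated hens and -0.83 (95% interval -3.02 to 1.37) in albumen-deprived compared to non-manipulated hens. In edgeR's quasi-likelihood F-test the unadjusted P-values were 0.550, 0.181 and 0.419, with adjusted P-values of 0.968, 0.798 and 0.99995. Both differences of the albumen-deprived group moved most without albumen-deprived hen 3, but not with that hen alone. Without it they were -3.39 and -2.80, with unadjusted edgeR P-values of 0.00650 and 0.0156. Without sham-manipulated hen 1 the first was -0.25, and without non-manipulated hen 3 the last was 0.06. In mammals FGF19 is made in the ileum. The 6 matched markers of the gut epithelium other than APOA4 summed to 1.92 to 3.42 CPM for non-manipulated, 2.09 to 3.17 for sham-manipulated and 1.84 to 5.71 for albumen-deprived hens. APOA4 was at 124 to 2318 CPM.

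**Figure D2:**
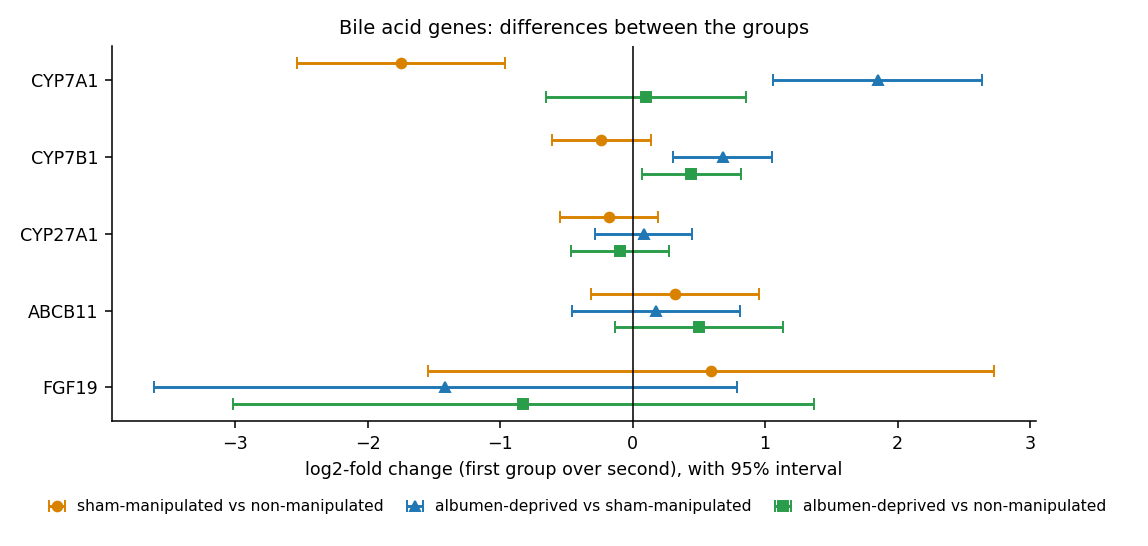
Log2-fold change of each member gene in the 3 comparisons, first group over second group, with its 95% interval from edgeR. The CYP7A1 values of the comparisons with sham-manipulated hens (-1.75 and 1.85) are those by which the set was chosen and are shown as a description, the intervals of CYP27A1 all include 0 and stay within 0.55 of it, and those of FGF19 are the widest.

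Of the 5 members tested, 4 were other than CYP7A1. Among these 4, the unadjusted P-value of edgeR's quasi-likelihood F-test was under 0.05 for 0, 1 and 1 members in the 3 comparisons. The shares of all 12324 loci were 5.28%, 7.13% and 3.23%. CYP7A1 is left out of these counts, because the set was chosen by its level in the sham-manipulated hens. In sham-manipulated compared to non-manipulated hens 2.30% of loci were higher and 2.98% lower. CYP7B1 was under 0.05, and higher, in albumen-deprived compared to sham-manipulated hens (4.11% of loci higher and 3.02% lower) and compared to non-manipulated hens (1.66% higher and 1.57% lower). After adjustment in the same test 0 of these 4 members and 0.00% of loci were called in each comparison. Among the 4, edgeR's likelihood ratio test also called 0 after adjustment in each comparison, and DESeq2's Wald test called 1, CYP7B1, in albumen-deprived compared to sham-manipulated hens. Of all 12324 loci, the likelihood ratio test called 31 and the Wald test 42 in that comparison.

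The hens of the compared groups did not overlap for 0, 1 and 2 of the 4 members other than CYP7A1, in the order of comparisons used above, where 9.71%, 12.8% and 8.39% of all loci did not overlap. The last 2 were CYP7B1 and ABCB11, both higher in albumen-deprived than in non-manipulated hens. The median log2-fold change of these 4 members was 0.07, 0.13 and 0.17, beside 0.01, -0.01 and 0.01 for all loci. The 3 sham-manipulated hens lay below all other hens for 1.89% of all loci and above them for 1.54%, and for 0 of the 4 members on either side.

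From hen to hen, no correlation of another member with CYP7A1 passed an exact permutation test after adjustment. Since the sham-manipulated hens stand apart in CYP7A1, a correlation over the 9 hens includes that group difference, and the value among the 6 other hens is given beside it. For CYP27A1, Pearson's r of log2 CPM was 0.42 (two-sided exact permutation p = 0.249, adjusted over 4 relations 0.332) and Spearman's rho 0.75 (exact p = 0.0255, adjusted 0.102). Without sham-manipulated hens 2 and 3, the farthest from the CYP7A1 median, r was 0.22 (exact p = 0.577), and among the 6 hens not sham-manipulated it was 0.32 (exact p = 0.578).

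CYP7B1 had an r of 0.55 with CYP7A1 (exact permutation p = 0.129, adjusted 0.330) and a rho of 0.65 (exact p = 0.0666, adjusted 0.133). Without the same 2 hens r was 0.46 (exact p = 0.289), among the 6 hens not sham-manipulated 0.05 (exact p = 0.926), and for deviations from the group means -0.31. The positive r of CYP7B1 over the 9 hens was thus not seen within the groups.

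ABCB11 showed the reverse arrangement, with a low r over the 9 hens and a higher one within groups. Its r was 0.30 (exact permutation p = 0.440, adjusted 0.440) and rho 0.40 (exact p = 0.291, adjusted 0.291), and r was -0.33 without the same 2 hens (exact p = 0.483) and -0.18 without sham-manipulated hen 2 alone. Among the 6 hens not sham-manipulated r was 0.45 (exact p = 0.357), and for deviations from the group means 0.77. Sham-manipulated hen 2 was the lowest hen for both genes.

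FGF19 had negative correlations with CYP7A1 in each form. Its r was -0.50 (exact permutation p = 0.165, adjusted 0.330) and rho -0.53 (exact p = 0.148, adjusted 0.197). Without sham-manipulated hens 2 and 3 r was -0.76 (exact p = 0.0266, without adjustment), among the 6 hens not sham-manipulated -0.69 (exact p = 0.144), and for deviations from the group means -0.30. The 2 hens with the least FGF19, albumen-deprived hens 1 and 2, had 58.6 and 76.9 CPM of CYP7A1, but sham-manipulated hen 3, with 7.99 CPM of FGF19, was among the lowest for CYP7A1. Among the 6 further pairs of members, added after the data were seen, the strongest r was -0.64 between CYP7B1 and FGF19 (exact permutation p = 0.0606, adjusted over all 10 pairs 0.551), and it was -0.05 without albumen-deprived hens 1 and 2.

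**Figure D3:**
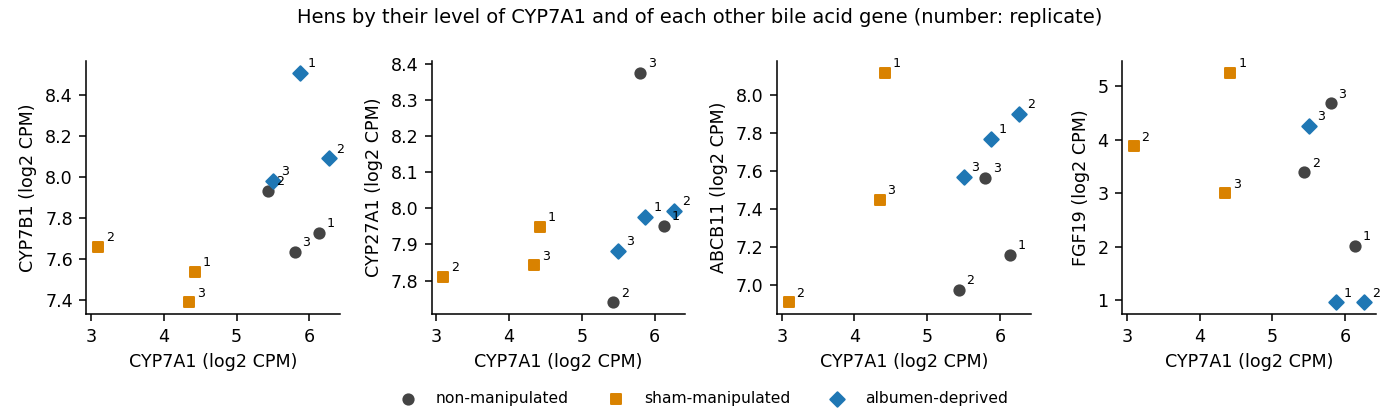
Each of the 9 hens by its level of CYP7A1 (horizontal axis, log2 CPM) and of CYP7B1, CYP27A1, ABCB11 or FGF19 (vertical axis, log2 CPM), with the group as symbol and the replicate number beside it. The 3 sham-manipulated hens stand to the left in every panel, at 8.54 to 21.4 CPM of CYP7A1. Their levels of ABCB11 were 120 to 277 CPM against 126 to 239 CPM in the remaining hens, and of FGF19 7.99 to 38.2 against 1.94 to 25.7 CPM. For CYP7B1 they were 168 to 202 against 199 to 365 CPM, and for CYP27A1 224 to 247 against 214 to 332 CPM.

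The other genes of the pathway were taken as lists. For the synthesis list of 13 further enzymes, 12 loci were tested, and their median log2-fold change was -0.02, 0.19 and 0.12 in sham-manipulated compared to non-manipulated, albumen-deprived compared to sham-manipulated and albumen-deprived compared to non-manipulated hens. An unadjusted P-value under 0.05 was found for 0 higher and 1 lower, 1 higher and 0 lower, and 2 higher and 0 lower, respectively, where 2.30% and 2.98%, 4.11% and 3.02%, and 1.66% and 1.57% of all loci were higher and lower. After adjustment over all loci 0 passed in edgeR's quasi-likelihood F-test.

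CYP39A1, the oxysterol 7-alpha-hydroxylase that acts on 24-hydroxycholesterol, was the only one of the 12 for which all 3 sham-manipulated hens lay below the other 6, as for CYP7A1. Its level was 90.4, 88.9 and 105 CPM in non-manipulated, 82.6, 73.5 and 74.9 CPM in sham-manipulated and 114, 131 and 121 CPM in albumen-deprived hens. No 2 groups overlapped, with the sham-manipulated hens lowest and the albumen-deprived hens highest. The log2-fold changes were -0.30 (SE 0.12), 0.66 (SE 0.12) and 0.36, with unadjusted P-values of 0.0323, 0.00033 and 0.0140 and adjusted P-values of 0.906, 0.418 and 0.99995 in edgeR's quasi-likelihood F-test. With a hen left out, the unadjusted P-value of that test was under 0.05 in 6, 9 and 8 of 9 fits. After adjustment, both edgeR's likelihood ratio test and DESeq2's Wald test called CYP39A1 in albumen-deprived compared to sham-manipulated hens, among 31 and 42 of the 12324 loci. HSD3B7, the dehydrogenase that follows 7-alpha-hydroxylation, was 33.1, 26.7 and 29.3 CPM, 34.6, 24.3 and 36.3 CPM, and 36.2, 39.9 and 43.1 CPM in the same order. It was higher in every albumen-deprived hen than in any non-manipulated hen, with a log2-fold change of 0.42 and an unadjusted edgeR P-value of 0.0309 (adjusted 0.99995), while sham-manipulated and non-manipulated hens overlapped (0.09).

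AKR1D1, the steroid 5-beta-reductase that shapes the bile acid nucleus, was picked out after its values were seen. It was 45.3, 24.9 and 56.7 CPM in non-manipulated, 47.1, 12.5 and 22.8 CPM in sham-manipulated and 43.3, 49.2 and 52.5 CPM in albumen-deprived hens. Its lowest hen was sham-manipulated hen 2, which was also lowest for CYP7A1, ABCB11, HSD3B7, CYP39A1 and NR1H4. Among all loci tested, this hen was lowest for 13.3% of them. The conjugating enzymes SLC27A5 and BAAT, which activate bile acids and join them to amino acids, had log2-fold changes of -0.03 and 0.05 in sham-manipulated compared to non-manipulated hens, and the BAAT locus also holds CCDC86 and MS4A15.

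In the transport list of 17 further genes, 14 were matched and 11 tested, with median log2-fold changes of 0.31, -0.15 and 0.29. In sham-manipulated compared to non-manipulated hens 3 of the 11 had an unadjusted P-value under 0.05, all higher (2.30% of all loci were called higher), and in the other 2 comparisons 0 had. The first pair of these were ABCG5 and ABCG8, which together form the transporter that moves cholesterol into bile. ABCG5 was 14.0, 5.48 and 21.4 CPM in non-manipulated, 27.0, 42.5 and 28.7 CPM in sham-manipulated and 21.2, 26.7 and 25.5 CPM in albumen-deprived hens. The 3 sham-manipulated hens were thus above the other 6 for ABCG5, the opposite side to CYP7A1, by a small margin (27.0 against 26.7 CPM). ABCG8 was 12.6, 2.87 and 6.79 CPM, 20.2, 20.4 and 16.8 CPM, and 11.9, 23.8 and 7.31 CPM in the same order, lowest like ABCG5 in non-manipulated hen 2.

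In sham-manipulated compared to non-manipulated hens the log2-fold change was 1.26 (SE 0.40) for ABCG5 and 1.37 (SE 0.52) for ABCG8, with unadjusted P-values of 0.0106 and 0.0258 and an adjusted P-value of 0.906 for both in edgeR's quasi-likelihood F-test. With a hen left out, the unadjusted P-value was under 0.05 in 9 of 9 fits for ABCG5 and 5 of 9 for ABCG8. The remaining gene was SLCO1A2, an organic anion carrier that takes up bile acids, with 204, 292 and 253 CPM in non-manipulated, 549, 796 and 253 CPM in sham-manipulated and 440, 341 and 260 CPM in albumen-deprived hens. Sham-manipulated hens 1 and 2 were the highest, but sham-manipulated hen 3 lay within the non-manipulated range. Its log2-fold change was 1.09 (SE 0.37, unadjusted edgeR P-value 0.0157, adjusted 0.906). SLCO1B3, a liver uptake carrier that was also chosen after its values were seen, was 592 to 847 CPM in non-manipulated, 762 to 970 CPM in sham-manipulated and 722 to 867 CPM in albumen-deprived hens. Both uptake carriers were thus well above the floor in the libraries in which SLC10A1 had 0 counts.

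Among the regulators, 15 loci of 14 genes were tested, with median log2-fold changes of -0.04, 0.07 and 0.05. An unadjusted P-value under 0.05 was found for 1 higher and 0 lower, 1 higher and 1 lower, and 1 higher and 0 lower, beside 2.30% and 2.98%, 4.11% and 3.02%, and 1.66% and 1.57% of all loci. NR1H4, the bile acid receptor FXR and the main sensor of the pathway, lay between 48.1 and 61.1 CPM in all 9 hens, and its log2-fold change was -0.06, 0.07 and 0.01 in the 3 comparisons. NR0B2 (SHP), the repressor that FXR induces in mammals, was 29.5, 42.4 and 30.2 CPM in non-manipulated, 45.8, 43.2 and 36.4 CPM in sham-manipulated and 59.8, 59.4 and 34.1 CPM in albumen-deprived hens. The groups overlapped, with log2-fold changes of 0.30, 0.29 and 0.59, the last with an unadjusted edgeR P-value of 0.0314 (adjusted 0.99995).

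FGFR4, the receptor of FGF19 in the liver, was 53.2, 56.4 and 64.2 CPM in non-manipulated, 66.8, 87.4 and 74.0 CPM in sham-manipulated and 65.5, 55.8 and 56.1 CPM in albumen-deprived hens. All 3 sham-manipulated hens lay above the other 6, so that FGFR4 and ABCG5 were the pathway genes with the reverse of the CYP7A1 order, and CYP39A1 the one with the same order. These were 2 above and 1 below among the 38 loci of the synthesis, transport and regulation lists, where 1.54% and 1.89% of all loci lay so. The log2-fold change of FGFR4 was 0.39 (SE 0.14) in sham-manipulated compared to non-manipulated and -0.36 in albumen-deprived compared to sham-manipulated hens, with unadjusted P-values of 0.0195 and 0.0276 and adjusted P-values of 0.906 and 0.682 in edgeR's quasi-likelihood F-test. Each unadjusted P-value of FGFR4 was under 0.05 in 6 of 9 fits with a hen left out. Its co-receptor KLB was 26.7, 23.3 and 33.0 CPM, 18.1, 33.5 and 21.3 CPM, and 31.1, 29.3 and 38.1 CPM, with log2-fold changes of -0.19, 0.43 and 0.24, and the sham-manipulated group held both its lowest and its second highest hen. PPARA, the fatty acid receptor, was 81.4, 74.0 and 78.4 CPM, 48.0, 86.5 and 49.6 CPM, and 90.6, 113 and 90.7 CPM. Each albumen-deprived hen was above every other hen for PPARA, with a log2-fold change of 0.68 (SE 0.22) over sham-manipulated hens (unadjusted edgeR P-value 0.0132, adjusted 0.605).

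**Figure D4:**
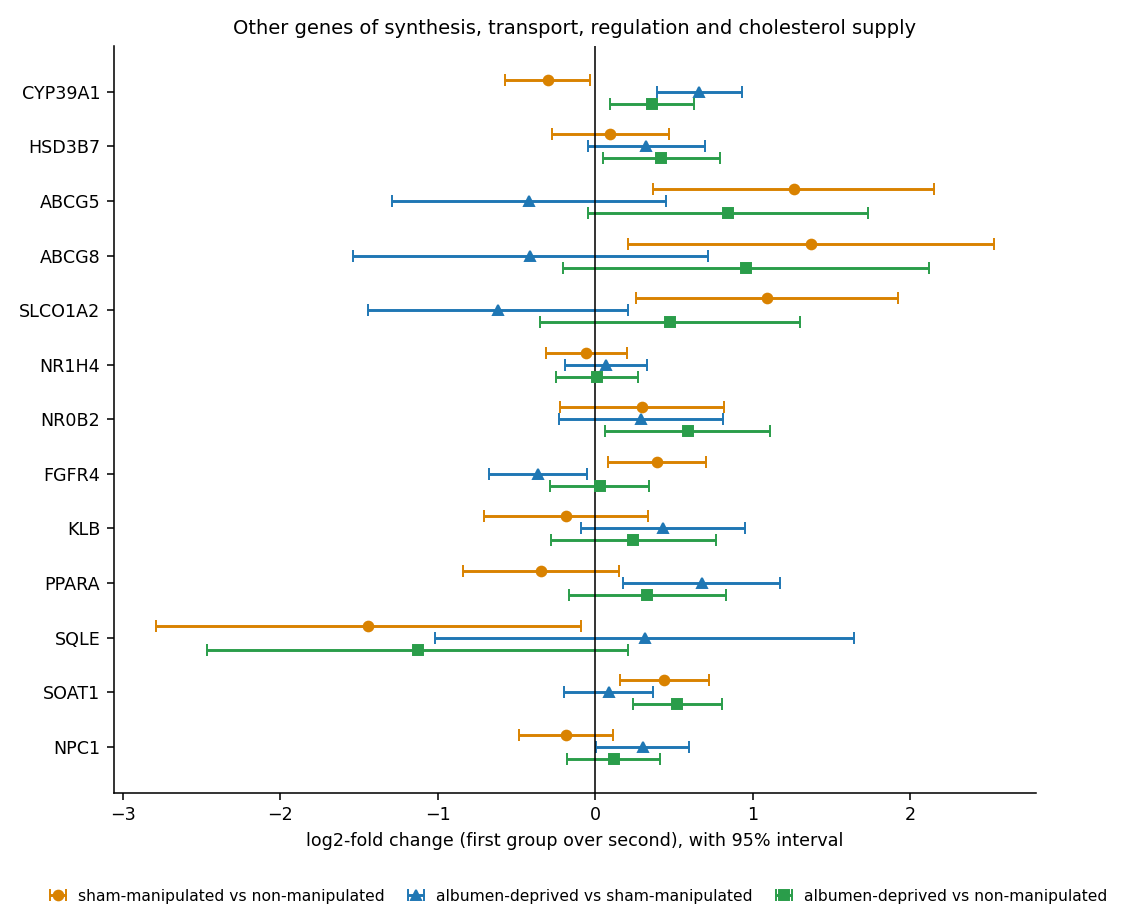
Log2-fold change of 13 further genes of bile acid synthesis, transport, regulation and cholesterol supply in the 3 comparisons, first group over second group, with its 95% interval from edgeR. CYP39A1 is the gene with intervals away from 0 in all 3 comparisons (log2-fold changes of -0.30, 0.66 and 0.36), NR1H4 lies within 0.07 of 0, and ABCG5, ABCG8 and SLCO1A2 are higher in sham-manipulated than in non-manipulated hens.

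Cholesterol is the substrate of CYP7A1, and its supply genes formed another list, of which 10 of 12 were matched and 9 tested. Their median log2-fold change was -0.34, 0.09 and -0.32, and an unadjusted P-value under 0.05 was found for 1 higher and 2 lower, 1 higher and 0 lower, and 1 higher and 0 lower, beside the same shares of all loci. SQLE, the squalene epoxidase of cholesterol synthesis, was 107, 112 and 167 CPM in non-manipulated, 42.1, 62.5 and 37.4 CPM in sham-manipulated and 36.7, 16.5 and 123 CPM in albumen-deprived hens. All sham-manipulated hens lay below all non-manipulated hens for SQLE, and the albumen-deprived hens were split, with hens 1 and 2 low and hen 3 high.

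In sham-manipulated compared to non-manipulated hens the log2-fold change of SQLE was -1.44 (SE 0.60), with an unadjusted P-value of 0.0387 and an adjusted P-value of 0.906 in edgeR's quasi-likelihood F-test. With a hen left out, the unadjusted P-value was under 0.05 in 4 of 9 fits. Albumen-deprived hens 1 and 2, low in SQLE, were at 58.6 and 76.9 CPM of CYP7A1, so that SQLE did not keep the CYP7A1 order across all groups. SOAT1, which esterifies cholesterol for storage, was 21.0, 24.5 and 25.7 CPM in non-manipulated, 36.2, 28.9 and 31.3 CPM in sham-manipulated and 33.5, 32.6 and 36.1 CPM in albumen-deprived hens. Both manipulated groups lay above the non-manipulated hens for SOAT1, with log2-fold changes of 0.44 (unadjusted P-value 0.00660, adjusted 0.906) and 0.52 (unadjusted P-value 0.00229, adjusted 0.99995) in the same edgeR test. NPC1, which releases cholesterol from lysosomes, had a log2-fold change of 0.30 in albumen-deprived compared to sham-manipulated hens (unadjusted edgeR P-value 0.0477, adjusted 0.694, under 0.05 in 2 of 9 fits with a hen left out).

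CYP7A1 has a daily rhythm in mammals, and the time of day at which each hen was killed is not given in the sources used here. The clock list had 13 loci tested, with median log2-fold changes of -0.14, -0.12 and 0.01. An unadjusted P-value under 0.05 was found for 1 higher and 1 lower, 2 higher and 1 lower, and 1 higher and 0 lower of them, beside 2.30% and 2.98%, 4.11% and 3.02%, and 1.66% and 1.57% of all loci. NR1D2 (REV-ERB beta), a repressor of the clock, was 99.8, 46.2 and 49.4 CPM in non-manipulated, 30.3, 48.6 and 32.3 CPM in sham-manipulated and 61.1, 67.6 and 56.4 CPM in albumen-deprived hens. Its log2-fold changes were -0.81 in sham-manipulated compared to non-manipulated and 0.74 in albumen-deprived compared to sham-manipulated hens, with unadjusted P-values of 0.0232 and 0.0353 and adjusted P-values of 0.906 and 0.688 in edgeR's quasi-likelihood F-test. RORA, an activator of the clock, was 14.6, 14.0 and 16.3 CPM, 10.4, 12.7 and 14.4 CPM, and 18.2, 20.2 and 20.4 CPM in the same order. All 3 albumen-deprived hens were above the other 6, with log2-fold changes of 0.65 over sham-manipulated hens (unadjusted P-value 0.00116, adjusted 0.475) and 0.39 over non-manipulated hens (unadjusted P-value 0.0218, adjusted 0.99995) in the same edgeR test. CLOCK had log2-fold changes of 0.26 in sham-manipulated compared to non-manipulated and -0.12 in albumen-deprived compared to sham-manipulated hens. All 3 sham-manipulated hens were above the other 6 for CLOCK. CRY1 had log2-fold changes of 0.30 and -0.37 in the same comparisons. In these comparisons NR1D2 and RORA (-0.26 and 0.65) thus had the same signs as CYP7A1, and CLOCK and CRY1 the reverse. The further clock loci were mixed in sign, and none of the list passed after adjustment in edgeR's quasi-likelihood F-test. The part of the clock in the CYP7A1 difference was not tested.

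The loci whose levels over the 9 hens were most like that of CYP7A1 were sought among the other 10340 previously identified loci that passed the filter, by Pearson's r of log2 CPM. The highest were THNSL1 (0.956), UBXN2B (0.946), SMOX (0.943), DOK2 (0.936) and the unnamed gene ENSGALG00000013571 (0.925). The lowest were DNAJC27 (-0.940), SNRNP27 (-0.926), SMAP2 (-0.925), VNN1 (-0.913) and STARD8 (-0.910), whose locus also holds gga-mir-6594. In all, 15 loci had an r above 0.9 and 8 an r below -0.9, and no other member was among them. These are descriptions of the same 9 hens, in which the sham-manipulated group stands apart, and carry no p-value. THNSL1, for example, was 49.4 ± 3.42 CPM for non-manipulated, 34.5 ± 7.78 for sham-manipulated and 53.3 ± 1.34 for albumen-deprived hens (SD, n = 3), and VNN1, a pantetheinase, was 52.7 ± 25.2, 172 ± 142 and 59.3 ± 16.0 CPM.

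UBXN2B, in the second place of that order, is also a neighbour of CYP7A1, and the loci within 60 kb were therefore examined, a choice made after the values were seen. UBXN2B lies at 111687480 to 111704557 on chromosome 2 (Galgal4), on the opposite strand, with 20.1 kb between it and the 3′ end of CYP7A1. Its level was 9.15, 5.48 and 7.07 CPM in non-manipulated, 4.69, 2.83 and 4.03 CPM in sham-manipulated and 7.25, 6.74 and 7.44 CPM in albumen-deprived hens. All 3 sham-manipulated hens were below the other 6, and hen 2 was lowest, as for CYP7A1. As a description, since UBXN2B was chosen for its likeness, the log2-fold changes were -0.91 (SE 0.24), 0.89 (SE 0.24) and -0.02, and r for deviations from the group means was 0.77.

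An unidentified locus of 4 exons lay 3.42 kb before the start of CYP7A1 on the opposite strand. It had 26, 12 and 16 counts in non-manipulated, 3, 13 and 7 counts in sham-manipulated and 19, 26 and 23 counts in albumen-deprived hens, that is 1.92, 0.802 and 0.898, 0.174, 0.646 and 0.462, and 1.23, 1.49 and 1.51 CPM. Here too the sham-manipulated hens were below the others, as they were for 1.89% of all loci. This locus was under 1 CPM in every sham-manipulated hen and passed the filter only through hens of the other groups, so nothing is read from this order. Among so few counts the order within groups differed from that of CYP7A1 (r for deviations -0.24). SDCBP, 15.5 kb away, and NSMAF, 27.7 kb away, had correlations of 0.38 and 0.30 with CYP7A1 and overlapping groups. SDCBP had log2-fold changes of -0.12, 0.04 and -0.08, and NSMAF of -0.01, 0.31 and 0.30, in the 3 comparisons.

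**Figure D5:**
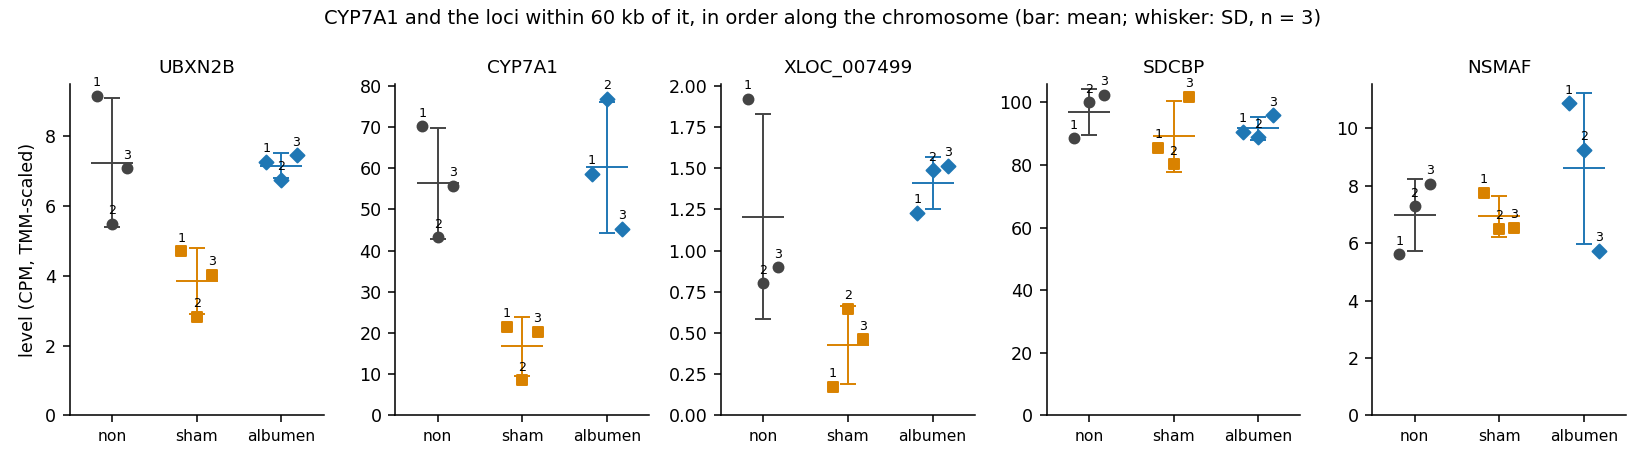
Level in CPM in each of the 9 hens of CYP7A1 and of the loci within 60 kb of it, in their order along the chromosome, with replicate numbers, a bar for the mean and a whisker for the SD (n = 3). The sham-manipulated hens are lowest for UBXN2B (2.83 to 4.69 CPM), CYP7A1 (8.54 to 21.4 CPM) and the unidentified locus (0.174 to 0.646 CPM), and overlap the other groups for SDCBP and NSMAF. UBXN2B was picked for its likeness to CYP7A1, and the unidentified locus passed the filter only through hens of the other groups.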

How the data were processed

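Liver RNA-Seq libraries of 9 hens, 3 per group, took their group and replicate number from the labels, which call them biological replicates. The authors mapped single-end, unstranded reads to Galgal4 with TopHat2 (2.0.8b), filtered them with SAMtools, merged Cufflinks (2.1.1) models with the annotation and deposited HTSeq (0.5.4p3) counts for 22082 loci without normalization. The authors also deposited the GC percent and length of each locus, and FPKM values for 13599 loci after GC-bin and between-sample quantile normalization. The deposited table of the authors' own comparisons, which holds log2-fold changes, P-values and calls, was not used. Reads on several loci were left out by the authors, so near-identical copies lose counts.

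Loci above 1 CPM in 3 or more libraries (12324) were scaled by TMM (factors 0.914 to 1.12). They were tested with edgeR 4.0.16 in R 4.3.3, by the quasi-likelihood F-test on all 9 libraries with 1 coefficient for each group (common dispersion 0.0630, prior and residual degrees of freedom 3.32 and 6). P-values were adjusted over all loci by the Benjamini-Hochberg method. An exact test of 3 hens against 3 cannot go below 0.1, so none was used. Correlations used log2 CPM with a prior count of 2 and exact permutation (scipy 1.17.1), and adjustment ran over 4 relations since SLC10A1 and CYP8B1 gave none. The 3 comparisons share groups in pairs and are not independent. No libraries of a group were duplicates (chi-square per degree of freedom 31.1 to 108). Intervals for 0 counts cover counting error only.

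The members and lists were chosen with earlier results of these data known. Text names all members, up to 4 genes of each list with the smallest unadjusted P-values under 0.05, NR1H4, NR0B2, FGFR4 and KLB, and the 5 loci with the highest and the lowest r with CYP7A1. A further gene covered by this rule is not reported here. Other names were chosen after their values were seen. Symbols were matched to the files and, for PPARA, NR1D2, EPCAM, CDX1 and APOA4 among others, through RefSeq synonyms (GRCg7b), and for NR1H4 through a RefSeq accession. Alternatives were DESeq2's size factors and Wald test (DESeq2 1.42.0), GC-bin quantile normalization (10 bins), no filter, edgeR's likelihood ratio test, a replicate block (alone, and together with the quantile normalization), a term for library codes, the deposited FPKM in limma 3.58.1 (pseudocounts 1 and 0.1), the compared groups alone, and each library left out. The model was checked on simulated counts.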

Additional observations from a re-analysis of the deposited data

How the results depend on the processing

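The tallies of log2-fold changes given here include the CYP7A1 differences that involve the sham-manipulated hens. Those led to the choice of the set, so that their being kept is not read as support. Of 165 log2-fold changes of the members under 11 other settings, 163 kept their direction and side of an unadjusted P-value of 0.05, and 0 reversed. The exceptions were ABCB11 with only the compared groups (albumen-deprived over non-manipulated 0.49, P-value 0.0277 in edgeR) and FGF19 with a term for library codes (albumen-deprived over sham-manipulated -2.32, P-value 0.0479 in edgeR). That term set apart replicate 3 of each group, a contrast that the replicate block also holds. With a hen left out, 119 of 135 were kept and 8 reversed, for which the cause was not tested. The ranges of those that reversed were -0.12 to 0.29 for CYP7A1, -0.23 to 0.10 for CYP27A1 and -2.80 to 0.0645 for FGF19 in albumen-deprived compared to non-manipulated hens, -0.31 to 0.0196 for CYP27A1, -0.0588 to 0.56 for ABCB11 and -0.25 to 1.48 for FGF19 in sham-manipulated compared to non-manipulated hens, and -0.0707 to 0.55 for ABCB11 in albumen-deprived compared to sham-manipulated hens. For members other than CYP7A1, unadjusted edgeR P-values were also counted with a hen left out. In sham-manipulated compared to non-manipulated hens only ABCB11 was under 0.05, in 1 of 9 fits. In albumen-deprived compared to sham-manipulated hens CYP7B1 was so in 9 fits, and ABCB11 and FGF19 in 1 each. Compared to non-manipulated hens these were 6, 1 and 1. Of the 12166 to 12268 loci tested, 412 to 833, 626 to 1005 and 301 to 508 were under 0.05. With only the compared groups, 2 members instead of 1 were under 0.05 in albumen-deprived compared to non-manipulated hens. The correlation of CYP7A1 with CYP7B1 reversed for deviations from the group means (-0.31), and with ABCB11 it ran from -0.18 to 0.58 with a hen left out. After adjustment, edgeR's likelihood ratio test called 6, 31 and 6 loci and DESeq2's Wald test 10, 42 and 8, against 0 in the quasi-likelihood F-test, and all other settings gave 0 or 1.

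The labels give the groups shared replicate numbers. The deviations of same-numbered hens had an r of -0.16 to 0.24, over 0.1 in 2 of 9 pairs, against -0.26 to 0.27 in 18 other pairs. No pairing by number was thus seen, but 3 hens a group cannot exclude it. With the replicate block, CYP7B1 alone of the members other than CYP7A1 had an unadjusted edgeR P-value under 0.05. It did so in both comparisons of the albumen-deprived hens, as without the block. Of all 12324 loci, 600, 833 and 422 were under 0.05 in the 3 comparisons with the block. CYP7A1 was -1.77, 1.93 and 0.15, CYP7B1 -0.24, 0.67 and 0.43, and FGF19 1.12, -2.25 and -1.13. The block with quantile normalization gave the same for CYP7B1, where 651, 875 and 459 of all loci were under 0.05. With 3 hens a group and the wide intervals of FGF19, differences of the size seen for that gene were not distinguishable from 0. SLC10A1 was not detectable at this depth under this gene model, and whether its reads fell on another model could not be checked.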
